A study of Mus musculus with 12 samples.

Results

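The proteasome genes of C2C12 myotubes were followed across the medium change from horse serum to STEM. They were taken from the gene symbols alone: protein-coding genes of the counts table whose symbol starts with Psma, Psmb, Psmc, Psmd, Psme, Psmf or Psmg and a digit, without the immunoproteasome genes Psmb8, Psmb9 and Psmb10, which are given separately below. The rule found 47 of the 55487 listed genes. They comprise 16 genes of the 20S core, 17 of the 19S cap, 6 activators and inhibitors, 7 assembly factors, and Psmc3ip, whose symbol matches although its product is a factor of meiotic recombination and not a proteasome subunit.

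C2C12 cells are mouse myoblasts of an established line, and in low serum they fuse and differentiate into myotubes. After 5 days of differentiation in 2% horse serum, the medium was changed for 24 h to one with 4% STEM or one with 4% horse serum. STEM is a secretome, the cell-free material released by human embryonic stem cells after partial differentiation. Both groups thus shared the line and the differentiation, and STEM took the place of horse serum, so that adding the one and withdrawing the other cannot be told apart. Each group had 6 libraries of total RNA without ribosomal RNA (horse serum libraries 1 to 6, STEM libraries 7 to 12); the labels do not say whether they came from separate cultures, and the p-values measure the spread between these libraries only.

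The proteasome is the main protease of the cytosol and nucleus. Its 20S core is a barrel of stacked rings: the outer alpha rings form a gated entrance, and the inner beta rings hold the proteolytic sites of Psmb5 (chymotrypsin-like), Psmb6 (caspase-like) and Psmb7 (trypsin-like). The 19S cap sits on the barrel, and its lid and base bind ubiquitin-tagged proteins, remove the tag and unfold the chain with a ring of ATPases. Other caps, such as the products of Psme1 to Psme4, open the barrel without ubiquitin. In skeletal muscle the proteasome takes part both in the turnover of contractile proteins and in the loss of muscle during disuse. When proteasomes run short, the transcription factor encoded by Nfe2l1 is known to raise many subunit genes together through antioxidant response elements.

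The bases upstream of 5 of the genes are shown because these genes carry the contrasts described below: Psmb5 rose with STEM while Psmb6 of the same ring did not pass the test, Psmc4 and Psmd11 are among the clearest rises in the cap, and Psmd10 fell. They are taken from RefSeq (build GRCm38.p6) and end upstream of the annotated gene. Capitals mark matches to TGACNNNGC, the core of an antioxidant response element, or to CCAAT, a box bound by the NF-Y complex, each searched on both strands, so that ATTGG is CCAAT read from the other strand. The letters TGAC are also a part of AP-1 and CRE motifs.
Psmb5, chr14:54618023-54618172, minus strand: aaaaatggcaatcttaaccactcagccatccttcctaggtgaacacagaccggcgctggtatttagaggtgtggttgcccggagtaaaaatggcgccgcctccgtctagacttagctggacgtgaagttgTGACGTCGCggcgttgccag
Psmb6, chr11:70525207-70525356, plus strand: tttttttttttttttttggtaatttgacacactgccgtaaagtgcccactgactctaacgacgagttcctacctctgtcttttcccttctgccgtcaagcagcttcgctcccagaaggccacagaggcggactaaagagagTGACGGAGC
Psmc4, chr7:28050102-28050251, minus strand: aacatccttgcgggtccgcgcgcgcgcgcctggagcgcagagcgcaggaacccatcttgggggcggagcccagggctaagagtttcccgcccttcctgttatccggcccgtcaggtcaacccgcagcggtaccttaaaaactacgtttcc
Psmd11, chr11:80428465-80428614, plus strand: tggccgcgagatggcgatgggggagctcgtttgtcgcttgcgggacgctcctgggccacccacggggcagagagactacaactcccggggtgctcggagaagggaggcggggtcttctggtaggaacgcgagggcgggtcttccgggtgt
Psmd10, chrX:140956729-140956878, minus strand: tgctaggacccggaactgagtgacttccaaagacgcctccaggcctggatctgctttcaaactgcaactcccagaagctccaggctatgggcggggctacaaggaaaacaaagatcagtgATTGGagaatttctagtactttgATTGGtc
Psmb5, a riser, and Psmb6, not called, both held the antioxidant-response letters, whereas the stretches of the risers Psmc4 and Psmd11 held neither motif.

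Over the larger windows, from 250 bases before to 50 bases after each start, 39 of the 47 genes had 42 windows. The letters TGACNNNGC were found in 6 of them (14.3%), against 12.4% of the 32851 windows of all genes in the table. The 6 genes were Psmb5, Psmb6, Psmc6, Psmd9, Psmd12 and Psme4, of which Psmb5 alone was called. CCAAT was found in 14 of the 42 windows (33.3%), against 37.4% of all windows. It was held by 4 of the 12 windows of genes called higher and by both windows of the genes called lower. The genes called lower are Psmd10 and Psmc3ip, and Psmc3ip is not a proteasome subunit. A match describes the letters only.

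All 12 libraries had between 13285472 and 24536264 counts. Myotube markers such as Myog, Ckm and the myosin heavy chains summed to between 11364 and 22403 CPM, counts scaled to a common library size, while the endothelial and adipocyte markers summed to at most 0.412 CPM and the macrophage list, which was mostly Cd68, to at most 5.77 CPM. Horse serum library 6 stood apart. On the first principal component of log2 CPM over the genes tested (44.2% of the variance) it lay at 11.2. The other horse serum libraries lay at -35.5 to -24.6 and the STEM libraries, to which it was nearer, at 15.5 to 28.6. On the second component (19.8%) library 6 lay at -53.3, below all others. Its myotube markers summed to 11364 CPM against 18287 to 20707 CPM in the other 5 horse serum libraries, with all 13 of the list lower in it. Its myoblast and cycling markers summed to 1030.2 CPM against 671 to 962 CPM, but these genes were mixed. Of the 7 in the list, 3 were higher in it than in the other 5 and 2 were lower. With STEM, the cycling markers summed to 521 to 605 CPM, and 5 of these 7 genes were called lower, against 17.4% of all genes. The part of these differences in the results below was not tested, and in whole cultures fewer cells of one type and less RNA per cell cannot be told apart. Counts of proteasome genes are therefore also given without library 6.

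Proteasome transcripts differed little between the media, and those that passed the test were mainly higher with STEM. Of the 47 genes, 45 passed the filter on low counts. By the quasi-likelihood test of edgeR, adjusted over all 14175 genes tested by the Benjamini-Hochberg method and called at an adjusted p of 0.05 or less, 15 were higher with STEM and 2 were lower. Among all genes tested 36.4% were called, 18.9% higher and 17.4% lower, so that the share of proteasome genes called (37.8%) was near the background, while their calls were mostly higher (33.3%) and seldom lower (4.44%). The median log2 fold change was 0.10 over the 45 genes and 0.01 over all genes, and 34 of the 45 values were above 0. No gene reached an absolute log2 fold change of 0.5, and the called rises lay between 0.13 and 0.36. For 9 genes every STEM library lay above every horse serum library, against 8.68% of all genes, and for 1 gene every STEM library lay below, against 8.52%.

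**Figure D1:**
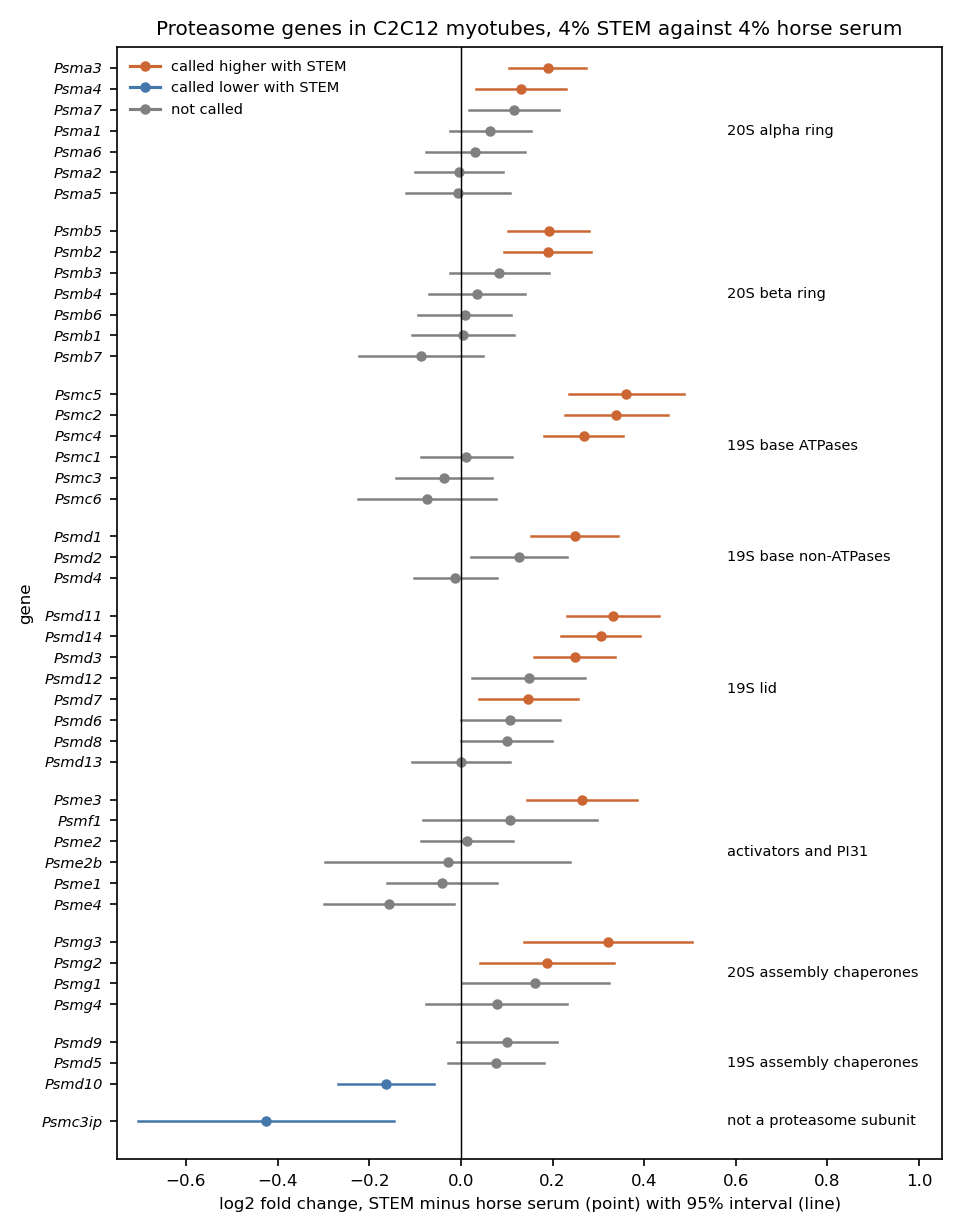
Log2 fold change (horizontal axis, STEM minus horse serum) of the 45 tested proteasome genes, one per line and grouped by role, with its 95% interval; orange marks genes called higher, blue genes called lower and grey genes not called. Of the 15 called rises 8 are genes of the 19S cap, and the 2 called falls are Psmd10 and Psmc3ip.

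The spread behind these calls was narrower than over all genes, which were not matched to the proteasome genes by abundance. Within the horse serum group the SD of log2 CPM had a median of 0.086 over the proteasome genes and 0.172 over all genes, and within the STEM group 0.068 and 0.125. Without library 6 the horse serum medians were 0.051 and 0.111. Among the horse serum libraries, library 6 was the lowest for 25 of the 45 proteasome genes and the highest for 12, against 33.1% and 35.8% of all genes. In the 20S core it was lowest for 12 of the 14 tested genes. Leaving library 6 out, 17 proteasome genes were higher and 5 lower, against 26.3% and 24.5% of all genes (50.8% called in all), and the median log2 fold change was 0.08. Psmd2 and Psmg1 were then gained as higher, and Psmb7, Psmc6 and Psme4 as lower.

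**Figure D2:**
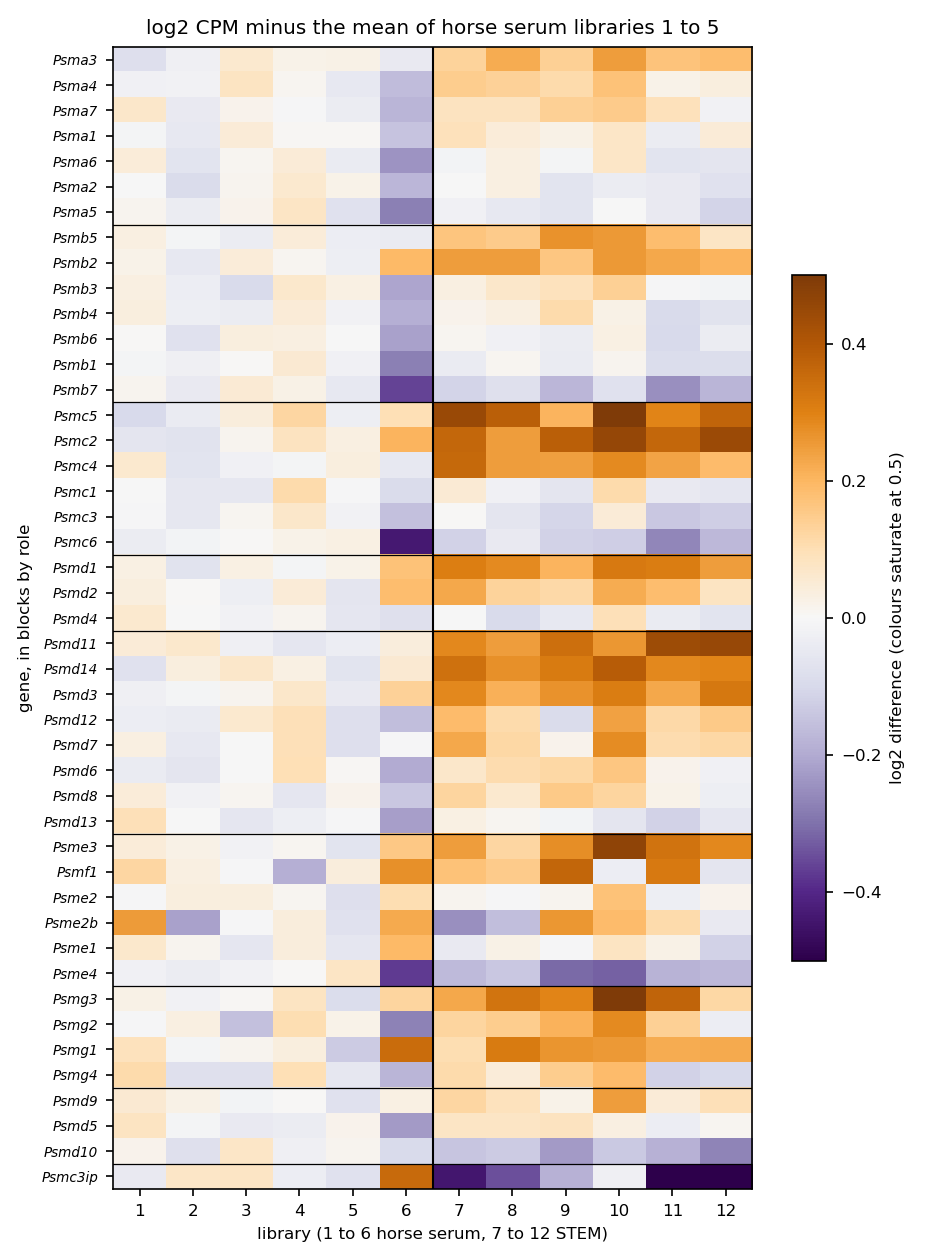
Log2 CPM of the 45 tested genes (rows in blocks by role) in each of the 12 libraries (columns), as the difference from the mean of horse serum libraries 1 to 5; orange is higher, purple lower, and colours saturate at a difference of 0.5. Column 6 is purple across most of the 20S core, and columns 7 to 12 are orange for the 7 genes of the 19S cap whose groups do not overlap.

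Of the 17 genes of the 19S cap that the symbol rule found, 8 were called (47.1%, against 36.4% of all genes), each of them higher. Sem1 and Adrm1, cap subunits with other symbols, are given with the partners below. The median log2 fold change over the 17 was 0.15. For 7 of the 17, each of them called, every STEM library lay above every horse serum library, against 8.68% of all genes. The summed level of the 17 genes was 3009, 3109.9 and 3209 CPM with horse serum (lowest, median and highest of 6 libraries, as for all triplets below) and 3254, 3303 and 3514 CPM with STEM. These sums did not overlap either. Genes of the cap that did not pass the test stood beside these in each of its substructures. In the absence of library 6, 9 were called higher and 1, Psmc6, lower, against 26.3% and 24.5% of all genes.

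Of the 6 ATPases of the base, which thread the unfolded chain into the core, Psmc2, Psmc4 and Psmc5 rose. This was 50% called, against 36.4% of all genes. Psmc4 (ENSMUSG00000030603, chr7:28041707-28050101, minus strand) lay at 110.4, 114 and 121 CPM with horse serum and at 132, 137 and 148 CPM with STEM. The groups were separate, and the log2 fold change was 0.27 ± 0.04 (SE, edgeR adjusted p = 0.000143). For Psmc2 (ENSMUSG00000028932, chr5:21785283-21803787, plus strand) the triplets were 96.5, 103 and 116 CPM and 119.9, 131 and 139 CPM. Library 6 was the highest horse serum library for this gene and still lay under each STEM library, and the log2 fold change was 0.34 ± 0.05 (edgeR adjusted p = 0.00018). Psmc5 (ENSMUSG00000020708, chr11:106256154-106263120, plus strand) gave the largest rise among the 45 genes, from 80.8, 86.99 and 94.2 CPM to 99.8, 112 and 127 CPM, a log2 fold change of 0.36 ± 0.06 (1.28-fold, edgeR adjusted p = 0.000261). Its STEM libraries were also the most scattered of the 3 genes, though they did not reach down to the horse serum range.

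The other ATPases of the same ring did not pass the test. Psmc1 lay at 187, 196 and 216 CPM with horse serum and 191, 195 and 216 CPM with STEM, with a 95% interval of the log2 fold change of -0.09 to 0.11. Psmc3 had a log2 fold change of -0.04 (95% interval -0.14 to 0.07), and it overlaps Slc39a13 on the opposite strand. Psmc6 was at 235 CPM in library 6 and at 309 to 323 CPM in the other horse serum libraries, and at 264 to 307 CPM with STEM. Its log2 fold change of -0.07 (edgeR adjusted p = 0.446) became -0.14 (edgeR adjusted p = 0.00709) without library 6. Within libraries, 1 pair of the ring chosen after the values were seen was compared. The log2 ratio of Psmc5 to Psmc3 was -2.52 ± 0.12 (SD, n = 6) with horse serum and -2.13 ± 0.07 (n = 6) with STEM. Since the pair was picked for its difference, the difference of 0.40, with each STEM library above each horse serum library, is given as a description.

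Psmd1, Psmd2 and Psmd4 form the rest of the base. Psmd1 (ENSMUSG00000026229, chr1:86064387-86139151, plus strand), a large scaffold subunit, lay at 241, 257 and 284 CPM with horse serum and at 291, 309 and 315 CPM with STEM and rose by a log2 fold change of 0.25 ± 0.04 (edgeR adjusted p = 0.000588), without overlap of the groups. Psmd2, the companion scaffold that docks ubiquitin shuttles, had 342, 361 and 406 CPM and 377, 398 and 418 CPM. Its groups overlapped through library 6, at 406 CPM, and the log2 fold change of 0.13 ± 0.05 (edgeR adjusted p = 0.0551) was called in its absence (0.16, edgeR adjusted p = 0.00269) and under 2 other alternatives. Psmd4, a ubiquitin receptor, stayed between 175 and 200.4 CPM across all 12 libraries, with a 95% interval of -0.10 to 0.08.

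In the lid, Psmd14, Psmd11, Psmd3 and Psmd7 were called, 50% of its 8 genes against 36.4% of all genes. Psmd14 (ENSMUSG00000026914, chr2:61711694-61800376, plus strand), the metalloprotease that cuts ubiquitin chains from the substrate, had the lowest p of the 45 genes. It was measured at 104, 111 and 114 CPM with horse serum and at 131, 134 and 143 CPM in the STEM libraries, and its log2 fold change was 0.31 ± 0.04 (1.24-fold, edgeR adjusted p = 4.75e-05). Psmd11 (ENSMUSG00000017428, chr11:80428615-80473248, plus strand), whose product clamps the lid to the alpha ring, moved from 65.9, 68.9 and 71.6 CPM to 81.3, 85.2 and 93.6 CPM, a log2 fold change of 0.33 ± 0.05 (edgeR adjusted p = 8.32e-05). Psmd3 (ENSMUSG00000017221, chr11:98682554-98695979, plus strand), a structural lid subunit, moved from 91.02, 94.1 and 103 CPM to 109, 114 and 118 CPM (0.25 ± 0.04, edgeR adjusted p = 0.000339). In each of these 3 genes the STEM libraries lay wholly above the horse serum libraries. The partner of Psmd14 in its dimer, Psmd7, had overlapping groups (54.2 to 61.1 CPM and 57.9 to 69.4 CPM) and a smaller rise of 0.15 ± 0.05 (edgeR adjusted p = 0.0331) that was not called under 7 of the alternatives at the same threshold. Psmd12 (0.15), Psmd6 (0.11), Psmd8 (0.10) and Psmd13 (0.00) were not called.

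**Figure D3:**
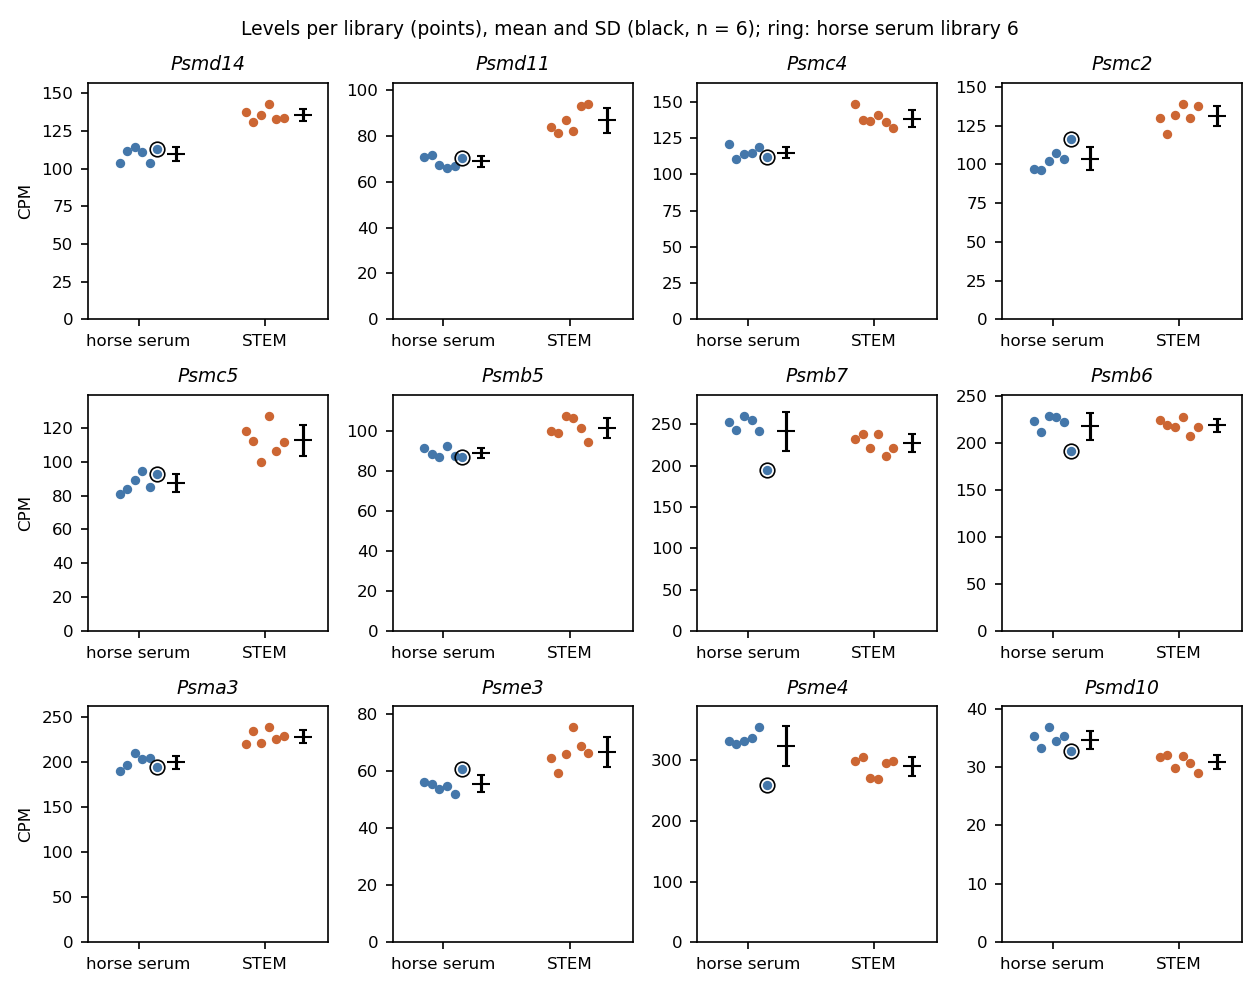
Level in CPM (vertical axes from 0) of 12 proteasome genes in each library, with the mean and SD (n = 6) of the horse serum (blue) and STEM (orange) groups in black and horse serum library 6 ringed. Psmd14, Psmd11, Psmc4, Psmc2, Psmc5, Psmb5 and Psma3 show groups that do not overlap, while Psmb7 and Psme4 have library 6 far under the other horse serum libraries.

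In the rings of the 20S core 4 of 14 genes were called (28.6%, against 36.4% of all genes), each of them higher. The median log2 fold change was 0.05. For 2 genes every STEM library lay above every horse serum library, against 8.68% of all genes. The summed level was 2172, 2467 and 2542 CPM with horse serum and 2436, 2530.0 and 2610 CPM with STEM, and these ranges overlapped. The lowest sum was that of library 6, whose next neighbour was at 2404 CPM. Without it, 4 genes were called higher and 1 lower, against 26.3% and 24.5% of all genes. Whether the cap and the core differed was not tested, since genes measured in the same libraries are not replicates.

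In the alpha ring, which gates the entrance, Psma3 and Psma4 rose, 28.6% of its 7 genes against 36.4% of all genes. Psma3 (ENSMUSG00000060073, chr12:70974621-70996347, plus strand) lay at 189.8, 200.4 and 209.6 CPM with horse serum and at 220.1, 227 and 238 CPM with STEM, separate groups with a log2 fold change of 0.19 ± 0.04 (edgeR adjusted p = 0.00166). Psma4 lay at 147, 162 and 174 CPM and at 167, 179 and 185 CPM. Its groups overlapped, its rise of 0.13 ± 0.05 (edgeR adjusted p = 0.0371) was the smallest called, and it was not called under 11 of the alternatives at the same threshold. Psma7, at 159, 177 and 188 CPM and 177, 191 and 199 CPM, had a similar difference of 0.12 ± 0.05 but did not pass (edgeR adjusted p = 0.0631). Psma1 (0.06), Psma6 (0.03), Psma2 (0.00) and Psma5 (-0.01) lay nearer 0 and were not called. Psma2 overlaps AW209491 on its own strand, so its reads may be split between them.

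Of the 3 catalytic subunits of the beta ring, Psmb5 alone was called. Psmb5 (ENSMUSG00000022193, chr14:54614119-54618022, minus strand), the chymotrypsin-like site, lay at 86.97, 88.2 and 92.4 CPM with horse serum and at 94.5, 101 and 108 CPM with STEM. It rose by a log2 fold change of 0.19 ± 0.04 (1.14-fold, edgeR adjusted p = 0.00223), with no overlap. Psmb6 (ENSMUSG00000018286, chr11:70525367-70527858, plus strand), the caspase-like site, lay at 192, 223 and 229 CPM and 208, 218 and 228 CPM, with a log2 fold change of 0.01 ± 0.05 (95% interval -0.09 to 0.11, edgeR adjusted p = 0.911). Psmb7 (ENSMUSG00000026750, chr2:38588036-38644087, minus strand), the trypsin-like site, lay at 195, 248 and 260.2 CPM and 211, 227 and 238 CPM, the low value being library 6. With all libraries its log2 fold change of -0.09 ± 0.06 was not called (edgeR adjusted p = 0.304), and without library 6 it fell by 0.14 on the log2 scale (edgeR adjusted p = 0.00517). Psmb7 overlaps Nek6 on the opposite strand, which had 6065 counts over all libraries against 45862 for Psmb7.

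The catalytic subunits were then set against each other within libraries, where scaling between libraries plays no part. The log2 ratio of Psmb5 to Psmb6 was -1.29 ± 0.09 (SD, n = 6) with horse serum and -1.10 ± 0.08 (n = 6) with STEM, a difference of 0.18. That of Psmb5 to Psmb7 was -1.43 ± 0.14 and -1.16 ± 0.09, a difference of 0.27. In each of these ratios 3 of the 6 STEM libraries lay above every horse serum library. The horse serum library in the overlap was library 6, which had the lowest horse serum levels of Psmb6 (192 CPM) and Psmb7 (195 CPM). Each STEM library lay above the other horse serum libraries in both ratios. These pairs were also chosen after their values were seen, so the differences are descriptive.

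Of the beta subunits without a proteolytic site, Psmb2 alone was called. It lay at 83.8, 87.8 and 99.3 CPM with horse serum and at 97.1, 102 and 104 CPM with STEM, and was higher by 0.19 ± 0.04 on the log2 scale (edgeR adjusted p = 0.00401). Here library 6 was the highest horse serum library and the one that overlapped the STEM range. Psmb3, at 156, 180.5 and 189 CPM and 179, 187 and 199 CPM, had a difference of 0.08 ± 0.05 (edgeR adjusted p = 0.21), and Psmb4 (0.04) and Psmb1 (0.00) were not called. The tissue-specific variants of the core were at or under 2 counts: Psma8, the alpha subunit of the testis, had 0 counts in each library, and Psmb11, the beta subunit of the thymic cortex, had 0 to 2.

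Of the 6 activators and inhibitors 1 was called (16.7%, against 36.4% of all genes). This was Psme3 (ENSMUSG00000078652, chr11:101316213-101323537, plus strand), which encodes the nuclear PA28-gamma ring. It lay at 52.1, 55.2 and 60.7 CPM with horse serum and at 59.3, 66.2 and 75.2 CPM with STEM, overlapping in 1 library of each group, and rose by 0.26 ± 0.06 (edgeR adjusted p = 0.00205). Psme4 (ENSMUSG00000040850, chr11:30771726-30880361, plus strand), which encodes PA200, a large nuclear cap, lay at 259.5, 332 and 354 CPM and 269, 298 and 305 CPM. Its log2 fold change of -0.16 ± 0.07 did not pass (edgeR adjusted p = 0.0771), but library 6 was the lowest of all 12 libraries, and without it Psme4 fell by 0.21 on the log2 scale (edgeR adjusted p = 0.00034), every STEM library then lying under the 5 others. The log2 ratio of Psme3 to Psme4, a pair chosen after its values were seen, was -2.53 ± 0.23 (SD, n = 6) with horse serum and -2.12 ± 0.18 (n = 6) with STEM. Library 6 had the highest horse serum value of this ratio.

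Psme1 and Psme2 encode the interferon-inducible PA28-alpha and PA28-beta. Psme1 lay at 27.7 to 32.95 CPM and 26.6 to 30.4 CPM and Psme2 at 48.8 to 55.3 CPM and 50.6 to 58.1 CPM, with 95% intervals of -0.16 to 0.08 and -0.09 to 0.11. Neither was called, and part of Psme1 lies opposite Emc9. Psme2b, a near copy of Psme2, was at 3.16 to 4.39 CPM and 3.10 to 4.41 CPM and is uncertain because reads can be split between the copies. Psmf1 encodes PI31, an inhibitor of the isolated core. It lay at 16.3, 19.1 and 22.5 CPM with horse serum and at 17.8, 20.8 and 24.01 CPM with STEM, with a log2 fold change of 0.11 ± 0.09 (edgeR adjusted p = 0.373).

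Of the 7 chaperones that build the core and the cap 2 were called higher and 1 lower (42.9% called, against 36.4% of all genes). Without library 6 the counts were 3 and 1, with 50.8% of all genes called. Psmg1 and Psmg2 form one dimer, and Psmg3 and Psmg4 another, that hold alpha subunits during ring assembly. Psmg3 (ENSMUSG00000029551, chr5:139823592-139826885, minus strand) lay at 11.9, 12.8 and 13.8 CPM with horse serum and at 13.7, 15.7 and 20.3 CPM with STEM and rose by 0.32 ± 0.09 (edgeR adjusted p = 0.00907), with 1 STEM library inside the horse serum range. Psmg2, at 33.5, 40.7 and 43.5 CPM and 39.5, 44.6 and 49.2 CPM, was just called (0.19 ± 0.07, edgeR adjusted p = 0.0441), and this call was lost under 15 of the 20 alternatives. Psmg1, at 15.8, 17.7 and 22.1 CPM and 18.6, 20.5 and 21.6 CPM, was not called (0.16 ± 0.08, edgeR adjusted p = 0.105), but library 6 was its highest horse serum value, and without that library it was (0.23, edgeR adjusted p = 0.00451). Psmg4 was not called (0.08).

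Among the chaperones of the cap, Psmd10 (ENSMUSG00000031429, chrX:140948429-140956728, minus strand), which encodes gankyrin, went against the rises around it. It lay at 32.7, 34.8 and 36.8 CPM with horse serum and at 29.03, 31.2 and 31.98 CPM with STEM. Each STEM library lay under each horse serum library, and the log2 fold change was -0.16 ± 0.05 (edgeR adjusted p = 0.0166). Psmd9, at 26.5, 28.04 and 28.9 CPM and 28.2, 29.6 and 32.97 CPM, and Psmd5, at 83.4, 96.01 and 103 CPM and 95.5, 101 and 104 CPM, also escort base ATPases during assembly and were not called, with log2 fold changes of 0.10 ± 0.05 and 0.08 ± 0.05. Psmc3ip, the meiotic factor that the symbol rule brought in, lay at 3.62, 3.87 and 4.87 CPM with horse serum and 2.36, 2.91 and 3.74 CPM with STEM and fell (-0.43 ± 0.13, edgeR adjusted p = 0.0195). It overlaps the opposite-strand gene Mlx, which had 5901 counts over the 12 libraries against 683 for Psmc3ip.

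Levels of different genes were compared per kb of annotated exon, with horse serum. Psmc3 stood highest of the 31 genes of the rings and the cap, at 193 CPM per kb, and Psmd11 lowest, at 10.8 CPM per kb, 17.9 times apart although the subunits are used in equal number. The catalytic subunits lay at 99.1 (Psmb5), 116 (Psmb6) and 70.6 (Psmb7) CPM per kb. The cap genes with the clearest rises, Psmd14, Psmd11, Psmc4 and Psmc2, lay at 38.9, 10.8, 53.2 and 20.6 CPM per kb. These levels depend on the transcript length assumed: with the longest transcript in place of all exons, the highest and lowest were 12 times apart.

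**Figure D4:**
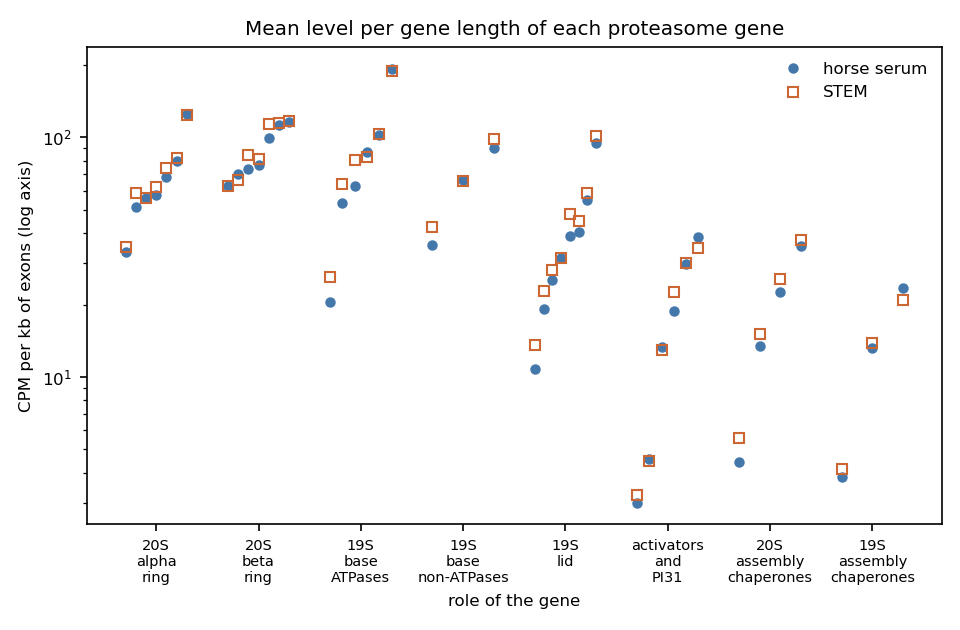
Mean level per kb of annotated exon (vertical log axis, CPM per kb) of each tested proteasome gene with horse serum (blue circles) and STEM (orange squares), arranged by role and, within a role, from low to high. The rings and the cap spread from 10.8 to 193 CPM per kb with horse serum, and 4 of the 13 activators and assembly chaperones lie below that range.

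The immunoproteasome genes, which can replace the constitutive catalytic subunits, went apart from each other. Psmb10 (ENSMUSG00000031897), which replaces Psmb7, lay at 10.03, 10.5 and 11.7 CPM with horse serum and at 17.05, 17.8 and 18.8 CPM with STEM. Its groups did not overlap, and it rose by 0.76 ± 0.06 (edgeR adjusted p = 4.56e-07). Psmb8 (ENSMUSG00000024338), which replaces Psmb5, was near the detection limit at 7 to 22 counts per library. It lay at 0.695, 1.06 and 1.27 CPM and 0.428, 0.590 and 0.903 CPM and was called lower (-0.67 ± 0.22, edgeR adjusted p = 0.0261). Psmb9, which replaces Psmb6, had 0 to 7 counts per library and was not tested alone.

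Set against the subunit it replaces, Psmb10 gained and Psmb8 lost. The log2 ratio of Psmb10 to Psmb7 was -4.49 ± 0.17 (SD, n = 6) with horse serum and -3.65 ± 0.09 (n = 6) with STEM, a difference of 0.84 (two-sided exact permutation test, p = 0.00216, which is the smallest for 6 libraries against 6, and p = 0.00649 when adjusted over 3 ratios). All 6 STEM libraries lay above the horse serum libraries. For Psmb8 to Psmb5 the means were -6.31 ± 0.27 and -7.08 ± 0.33, a difference of -0.77 (exact permutation test, two-sided, p = 0.00649, adjusted p = 0.00974), with 4 of 6 STEM libraries under all horse serum libraries. The difference for Psmb9 to Psmb6, -0.56, did not pass (exact permutation test, two-sided, p = 0.145) and was not detectable at this depth.

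**Figure D5:**
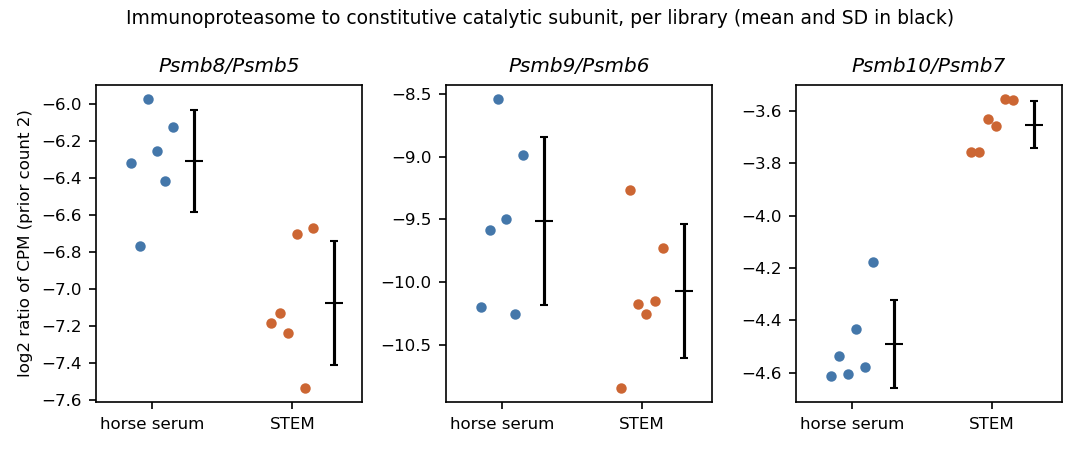
Log2 ratio of each immunoproteasome subunit to the constitutive subunit it replaces (vertical axes, CPM with a prior count of 2) in each library, with the mean and SD (n = 6) in black. The Psmb10 to Psmb7 ratio separates the horse serum (blue) and STEM (orange) groups, while the other 2 ratios overlap.

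Genes that work with the proteasome but have other symbols were mixed. Of 17 partners 5 were called higher and 3 lower (47.1% called, against 36.4% of all genes), with a median log2 fold change of 0.00. Adrm1, another ubiquitin receptor of the cap, lay at 48.7 to 58.5 CPM with horse serum and at 62.8 to 74.4 CPM with STEM and rose (0.35 ± 0.06, edgeR adjusted p = 0.000234), without overlap. Sem1, a small subunit of the lid that is named here after its values were seen, lay at 95.2 to 125 CPM and 74.7 to 104 CPM and fell (-0.28 ± 0.08, edgeR adjusted p = 0.0147), against the direction of the called lid genes. Its groups overlapped. Ubqln4, a ubiquitin shuttle, rose by 0.33 ± 0.08 (edgeR adjusted p = 0.00395). Zfand5, whose product stimulates the proteasome and is known from muscle atrophy, fell by 0.28 on the log2 scale (edgeR adjusted p = 0.00467), and its relative Zfand6 fell by 0.30 (edgeR adjusted p = 0.00579). The cap deubiquitinase Usp14 (0.05) and the core maturation factor Pomp (-0.03) were not called.

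Of 12 known regulators of proteasome genes tested, 1 was called higher and 2 lower, a share (25%) under that of all genes (36.4%). Nfe2l1 lay at 480.4, 601 and 641 CPM with horse serum and at 548, 599 and 632 CPM with STEM, with a log2 fold change of 0.02 ± 0.07 (95% interval -0.12 to 0.17). Nfe2l2, the stress-activated relative, lay at 90.1, 93.2 and 97.1 CPM and 82.3, 88.7 and 97.3 CPM (-0.05 ± 0.05, 95% interval -0.15 to 0.05). Both factors are controlled mainly after translation, which transcript levels do not show. Of the NF-Y subunits, Nfyc rose (0.24 ± 0.08, edgeR adjusted p = 0.0252) and Nfya fell (-0.30 ± 0.09, edgeR adjusted p = 0.0146). Maff, a small partner of the antioxidant-response factors, fell (-0.75 ± 0.26, edgeR adjusted p = 0.0429). Maff was at 13.4 CPM in library 6 and at 43.8 CPM or more in the other horse serum libraries, against 20.6 to 30.6 CPM with STEM.

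Upstream of the proteasome, Ubb, a polyubiquitin gene, was the only 1 of 6 ubiquitin and ubiquitin-activation genes called (0.23 ± 0.05, edgeR adjusted p = 0.00168). That share (16.7%) lay under the 36.4% of all genes. The p97 segregase extracts ubiquitin-tagged proteins for the proteasome. Among 9 genes of p97 and its cofactors 3 were higher and 2 lower (55.6% called, against 36.4% of all genes). Vcp itself lay at 482 to 564 CPM with horse serum and at 562 to 616 CPM with STEM and rose (0.25 ± 0.05, edgeR adjusted p = 0.00121), with its cofactor Ufd1 (0.21 ± 0.05), while the adaptors Ubxn7 (-0.28 ± 0.04) and Faf1 (-0.21 ± 0.05) fell. Of the 8 genes of the CCT chaperonin, another large complex, 2 were higher and 1 lower (37.5% called, close to the proteasome genes and to all genes), with a median of 0.04, and of 74 cytosolic ribosomal protein genes 5 were called (6.76%), each of them lower, with a median of -0.08. For the ribosomal genes the counts without library 6 were 1 higher and 38 lower, so that library 6 decides that count. Without it 50.8% of all genes were called, 26.3% higher and 24.5% lower. The partners were then 6 higher and 3 lower, the regulators 3 and 2, the ubiquitin genes 2 and 1, the p97 genes 4 and 4, and the chaperonin 3 and 2.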

How the data were processed

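RNA was sequenced from C2C12 myotubes kept with 4% STEM or 4% horse serum, 6 libraries each, grouped by the sample labels. The authors prepared stranded libraries with ribosomal RNA removed and deposited raw read counts per Ensembl gene, without normalization. The submitters' processing notes name STAR 2.7.3a, featureCounts 1.6.3, DESeq2 1.26.0 and build GRCm38, and the annotation release and strand setting of the counting are not given in the sources used here. Without a stated strand setting, reads of overlapping genes on opposite strands may be mixed. Psmd1 with Htr2b and Psmd13 with Sirt3 are among such pairs not named above. Symbols, coordinates and exon lengths came from GENCODE M21, which held 55227 of the 55487 genes, and the rest held 0.00268% of the counts.

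Differential expression was computed with edgeR 4.0.16 in R 4.3.3 (TMM, filterByExpr, robust glmQLFit, glmQLFTest, Benjamini-Hochberg over 14175 genes, called at 0.05). CPM are counts scaled to the TMM library size, and ratios used log2 CPM with a prior count of 2. The study used DESeq2, which was run here (1.42.0) as an alternative beside limma-voom (limma 3.58.1), other scalings and filters, thinning, and leaving out each library. The fits were tested on simulated data. Libraries of a group differed beyond counting noise in each pair. The genes and gene lists were chosen with earlier results of these data known, and the 4 ratios between constitutive subunits were chosen after the values were seen. Genes given full values were Psmb5, Psmb6, Psmb7, the 3 members of lowest p in each role, those under the filter, the immunoproteasome genes, at most 4 called genes per other list, and Nfe2l1 and Nfe2l2. Sem1, Usp14, Pomp and Slc39a13 and other overlapping genes were named outside that rule. Of 4 proteasome pseudogenes in the table, none had more than 1 count in a library. Depth alone does not set the precision, since the libraries differed beyond counting noise. At 13285472 counts or more, the least abundant tested gene of the rule, Psmc3ip, still had 35 or more counts in each library.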

Additional observations from a re-analysis of the deposited data

Results flagged for a closer look

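A value was singled out when it lay apart from the other 5 of its group by Dixon's criterion for 6 values. This was so in 20 of the 182 groups examined, and 18 of the 20 were horse serum library 6; chance gives about 5% of groups. Of the 90 groups of proteasome genes 8 were singled out, 7 of them in library 6.

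Among the proteasome genes, library 6 was low for Psmb1 (246 CPM, next 292), Psmb4 (196 CPM, next 218), Psmb7 (195 CPM, next 243), Psmc6 (235 CPM, next 309) and Psme4 (260 CPM, next 327). It was high for Psmb2 (99.3 CPM, next 89.5) and Psmc3ip (4.87 CPM, next 4.02). STEM library 10 was high for Psme2 (58.1 CPM, next 52.1).

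Among the pathway genes, library 6 was low for Faf1 (115 CPM), Maff (13.4 CPM), Ubxn1 (70.4 CPM), Zfand5 (144 CPM) and Zfand6 (66.4 CPM). It was high for Faf2 (60.4 CPM), Nfyc (34.9 CPM), Nploc4 (90.7 CPM), Uba1 (361 CPM), Vcp (564 CPM) and Zfand2a (36.2 CPM). STEM library 9 was high for Ubxn6 (72.9 CPM).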

How the results depend on the processing

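Of 900 results for single proteasome genes under 20 alternatives, 850 kept their side of the threshold, 34 were no longer called and 16 became called. No called gene changed sign, while genes not called with values near 0, such as Psma2, Psma5, Psmb1 and Psmb6, crossed 0 under some alternatives. Of the 17 called genes 13 were called under each alternative at the 0.05 threshold, the exceptions being Psma4, Psmd7, Psmg2 and Psmd10, and 9 genes not called became called under at least 1. The count of proteasome genes called higher (15) ranged from 12 to 19 across settings and from 12 to 17 when 1 library was left out. The share of all genes called also moves with such choices: it was 36.4% with all libraries and 50.8% without horse serum library 6. These ranges are therefore not read as a trait of the proteasome genes. The count called lower (2) was 1 with no filter on low counts, where Psmd10 was not called, 0 at an adjusted p of 0.01, and between 2 and 5 when 1 library was left out, the 5 being without horse serum library 6. The pathway genes, here the immunoproteasome genes, partners, regulators, ubiquitin genes and p97 genes without the chaperonin, had 11 called higher and 8 lower. Among all genes 18.9% were higher and 17.4% lower at that threshold. At an adjusted p of 0.01 the pathway counts were 6 and 4, and the share of all genes is not given here. The ratio of the highest to the lowest level per kb was 12 with the longest transcript length against 17.9. The median log2 fold change of the proteasome genes lay between 0.08 and 0.12 and that of all genes between -0.01 and 0.03 under the scalings tried. No paired analysis was made, because the labels do not say whether libraries of the groups were matched. Depth limits Psmb8, Psmb9, Psma8 and Psmb11, which had 22 counts or fewer in each library.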
